A study of Mus musculus with 11 samples.

Results

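The 9 genes described here encode proteins of the oligodendrocyte and its myelin sheath: Mbp, Mog, Mobp, Mag, Cnp, Cldn11, Mal, Ermn and Gprc5b. They were taken by symbol from count tables of 24411 genes, and all 9 were present and passed the filter on low counts that left 13339 genes for testing. The rule goes by symbol and uses no measured value, but the genes were chosen with earlier results of these data known. Their levels were set side by side over sorted brain myeloid cells by route and by population.

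Polyadenylated RNA was sequenced from 11 libraries of mouse brain cells that the labels call microglia-like, from sorted myeloid populations, in a study of blood stem cell transplantation titled for a mouse model of Alzheimer's disease. Donor cells were delivered by the lumbar intrathecal route (ITL), into the cerebral ventricles (ICV) or into a vein (IV), and for each route 3 populations were collected. They are CD45.1 TAµ, CD45.2 µ and CD45.1 µ, in which CD45.1 and CD45.2 are allelic forms of a leukocyte surface protein that tell cells of different origin apart. Of the remaining libraries, one is ICV CD45.2 cells labelled PBS and the other is a control, CTR µ, for which no CD45 form is given. The labels expand neither TAµ nor PBS. They do not say which CD45 form marks the host, whether a library carried a disease transgene, the age or number of animals behind it, or whether animals were pooled. Each combination of route and population is 1 library, so nothing measures the spread between animals of one group.

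In the central nervous system myelin is made by oligodendrocytes, which wrap axons in a compacted extension of their own membrane. Mbp protein holds the cytoplasmic faces of that membrane together, and several of the others sit at defined places in the sheath, from the surface next to the axon (Mag) to the outermost face (Mog). Microglia and brain macrophages are not myelin-forming cells, but they engulf myelin, and in the mouse the Mbp locus also gives rise to golli transcripts, which are found in immune cells as well as in neural cells. The gene-level counts do not separate golli from classic Mbp transcripts. In a bulk library, fewer cells of a type and less RNA per cell cannot be told apart.

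Total counts ran from 6090589 (ITL CD45.2 µ) to 21282823 (ICV CD45.2 µ), and the ribosomal precursor transcript Rn45s took 6.98% to 25.1% of them. Levels are given as CPM, the count per 1000000 counts of the library, so they depend on such abundant transcripts. Fewest genes were detected in IV CD45.2 µ (10477), then in ICV CD45.1 µ (11456), against up to 15492 in the others. The labelled cell type was checked with 12 microglia and macrophage markers, whose summed level was 12839 to 32796 CPM in every library. Neutrophil markers (4 genes) ranged from 1.00 CPM in IV CD45.2 µ to 10084 CPM in IV CD45.1 µ. A count of 0 allows a level of up to 0.141 CPM in the deepest library and up to 0.493 CPM in the shallowest, at 3 counts. These floors, and all intervals given for single libraries, cover counting error only.

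The promoter windows of Mag, Cnp and Mog are shown. Of the 8 genes with a window, only these hold a match to the core of the motif of MYRF. MYRF is the transcription factor that switches on myelin genes in oligodendrocytes. The windows span 250 bases before to 50 after an annotated start, from RefSeq on GRCm38.p6, written 5′ to 3′ on the gene's strand. Capitals mark matches on either strand to CTGGCAC or CTGGTAC (MYRF) and to ACAAAG (the core bound by SOX factors such as Sox10, another factor of the lineage). No match to one motif overlaps a match to the other in these windows. Windows were found for 8 of the 9 genes, and the first of 3 is shown for Mag. No window was found for Mbp, so Mbp was not scanned for either motif.
Mag (chr7:30914814-30915113, minus strand): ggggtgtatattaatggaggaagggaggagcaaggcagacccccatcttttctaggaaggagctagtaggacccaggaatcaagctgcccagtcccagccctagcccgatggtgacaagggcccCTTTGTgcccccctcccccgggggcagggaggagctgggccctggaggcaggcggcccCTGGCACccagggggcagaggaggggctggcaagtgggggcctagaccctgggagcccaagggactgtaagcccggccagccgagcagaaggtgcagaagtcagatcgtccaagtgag
Cnp (chr11:100574689-100574988, plus strand): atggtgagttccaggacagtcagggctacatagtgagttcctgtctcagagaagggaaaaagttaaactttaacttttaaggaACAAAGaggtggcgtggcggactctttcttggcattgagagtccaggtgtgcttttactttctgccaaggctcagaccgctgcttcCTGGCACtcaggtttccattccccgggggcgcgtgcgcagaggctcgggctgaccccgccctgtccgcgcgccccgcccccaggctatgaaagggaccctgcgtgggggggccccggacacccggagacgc
Mog (chr17:37023349-37023648, minus strand): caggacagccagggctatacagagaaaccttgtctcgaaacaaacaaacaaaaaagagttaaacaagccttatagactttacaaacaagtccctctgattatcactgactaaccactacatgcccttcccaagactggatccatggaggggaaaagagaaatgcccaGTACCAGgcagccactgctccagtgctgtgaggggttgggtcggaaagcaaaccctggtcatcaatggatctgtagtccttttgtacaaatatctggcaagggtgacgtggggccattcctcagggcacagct

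Of the 8 genes with a window, 3 held a MYRF match, against 8.10% of all 27025 genes with windows of this length. A SOX match was found in Mobp, Mag and Cnp, 3 of 8 genes, against 21.02% of all genes. Mobp had 6 such matches, all reading CTTTGT and starting at bases 8 to 131 of its window. They lie in a T-rich stretch of repeated, similar letters, so they are not 6 separate sites of mixed sequence. A match describes the letters of the window and does not show that a factor binds there.

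The summed level of the 9 transcripts varied widely within each population and each route. It was 157 CPM in CD45.1 TAµ, 385 CPM in CD45.2 µ and 212 CPM in CD45.1 µ cells after ITL delivery. After ICV delivery it was 625 CPM in CD45.1 TAµ, 95.2 CPM in CD45.2 PBS, 153 CPM in CD45.2 µ and 142 CPM in CD45.1 µ cells. After IV delivery it was 102 CPM in CD45.1 TAµ, 304 CPM in CD45.2 µ and 139 CPM in CD45.1 µ cells, against 101 CPM in CTR µ. The 3 highest libraries, ICV CD45.1 TAµ, ITL CD45.2 µ and IV CD45.2 µ, came from each of the routes, and none was a CD45.1 µ library. By population the sum averaged 295 ± 287 CPM in CD45.1 TAµ, 280.5 ± 118 CPM in CD45.2 µ and 165 ± 41.3 CPM in CD45.1 µ (SD, n = 3 libraries each). By route it averaged 252 ± 119 CPM after ITL, 307 ± 276 CPM after ICV and 182 ± 107 CPM after IV delivery (SD, n = 3 each), so all of these groups overlapped. Even in the highest library the 9 genes held 0.0625% of all counts.

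**Figure D1:**
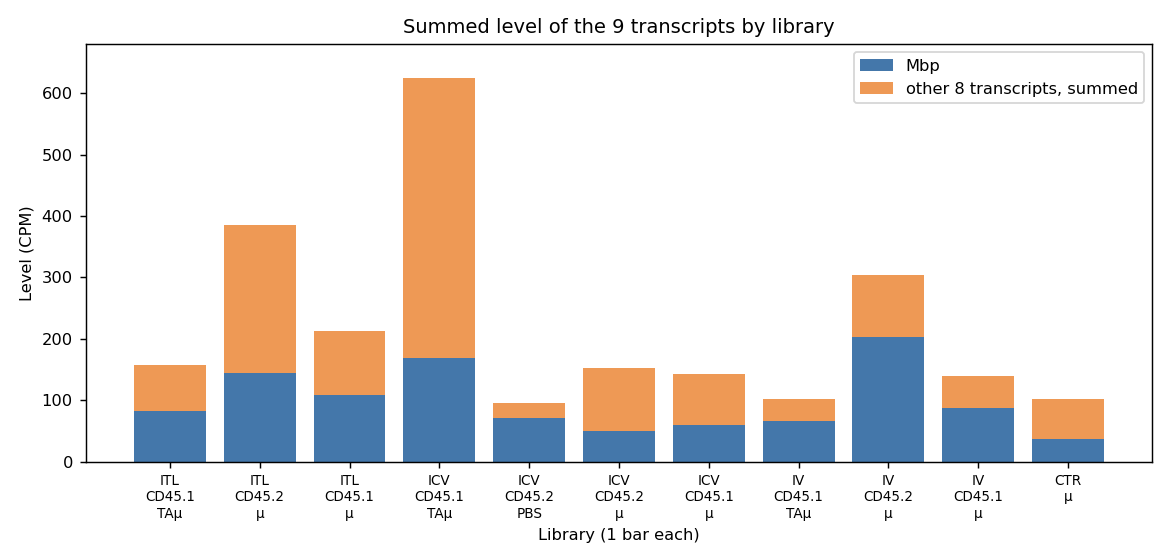
Summed level of the 9 transcripts in each of the 11 libraries (CPM, linear axis, 1 bar per library and no error bars because there is 1 library per combination), with Mbp in blue and the other 8 genes in orange. ICV CD45.1 TAµ reaches 625 CPM, and the PBS library is the lowest at 95.2 CPM and consists mostly of Mbp.

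Mbp, Mobp and Mal belong to the compact myelin membrane. Mbp, myelin basic protein, is on chromosome 18 and had counts in all libraries. Mbp had 81.6 CPM in CD45.1 TAµ, 144 CPM in CD45.2 µ and 108 CPM in CD45.1 µ cells after ITL delivery. Mbp stood at 168 CPM in CD45.1 TAµ, 70.4 CPM in CD45.2 PBS, 50.5 CPM in CD45.2 µ and 59.0 CPM in CD45.1 µ cells after ICV delivery. Mbp was at 66.8 CPM in CD45.1 TAµ, 203 CPM in CD45.2 µ and 87.9 CPM in CD45.1 µ cells after IV delivery, against 36.1 CPM in CTR µ. The highest library, IV CD45.2 µ, was 5.63-fold above the lowest, CTR µ, the narrowest range among the 9 genes.

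Mbp also took a varying share of the reads of the 9 genes. This share was lowest in ICV CD45.1 TAµ, 26.9% (95% Wilson interval 25.9% to 27.9%), and highest in ICV CD45.2 PBS, 73.9% (71.9% to 75.9%). It was 65.7% in CD45.1 TAµ, 67.0% in CD45.2 µ and 63.1% for CD45.1 µ cells after IV delivery, against 35.6% in CTR µ. Mbp thus took 63.1% to 73.9% of these reads in the IV libraries and the PBS library, and 26.9% to 51.9% in the other 7 libraries.

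Mobp, myelin-associated oligodendrocyte basic protein, is a small protein of compact myelin encoded on chromosome 9. Mobp had 4.31 CPM in CD45.1 TAµ, 18.6 CPM in CD45.2 µ and 0.913 CPM in CD45.1 µ cells after ITL delivery. Mobp stood at 32.9 CPM in CD45.1 TAµ, 2.55 CPM in CD45.2 PBS, 3.99 CPM in CD45.2 µ and 0 CPM in CD45.1 µ cells after ICV delivery. Mobp was at 2.36 CPM in CD45.1 TAµ, 24.5 CPM in CD45.2 µ and 9.44 CPM in CD45.1 µ cells after IV delivery, against 2.83 CPM in CTR µ. The highest libraries were those of ICV CD45.1 TAµ, then IV CD45.2 µ, while no count was found in ICV CD45.1 µ.

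Mal encodes a small membrane proteolipid that helps to sort myelin proteins into the membrane. Mal had 6.62 CPM in CD45.1 TAµ, 53.0 CPM in CD45.2 µ and 16.1 CPM in CD45.1 µ cells after ITL delivery. Mal stood at 86.7 CPM in CD45.1 TAµ, 0.102 CPM in CD45.2 PBS, 10.7 CPM in CD45.2 µ and 0 CPM in CD45.1 µ cells after ICV delivery. Mal was at 0.811 CPM in CD45.1 TAµ, 30.6 CPM in CD45.2 µ and 6.34 CPM in CD45.1 µ cells after IV delivery, against 5.36 CPM in CTR µ. ICV CD45.1 TAµ and ITL CD45.2 µ were highest, while ICV CD45.1 µ had no count and the PBS library had 2 counts.

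Mag, Mog, Cnp and Cldn11 belong to the surfaces, channels and junctions of the sheath. Mag, myelin-associated glycoprotein, is a sialic acid-binding adhesion protein next to the axon. Mag had 15.5 CPM in CD45.1 TAµ, 36.9 CPM in CD45.2 µ and 16.1 CPM in CD45.1 µ cells after ITL delivery. Mag stood at 46.7 CPM in CD45.1 TAµ, 5.35 CPM in CD45.2 PBS, 18.8 CPM in CD45.2 µ and 15.9 CPM in CD45.1 µ cells after ICV delivery. Mag was at 9.86 CPM in CD45.1 TAµ, 0.541 CPM in CD45.2 µ and 18.9 CPM in CD45.1 µ cells after IV delivery, against 18.4 CPM in CTR µ. It was detected in all libraries, and 9 of the 11 lay between 5.35 and 36.9 CPM, with ICV CD45.1 TAµ above and IV CD45.2 µ far below them. In IV CD45.2 µ, where Mbp was at its highest, Mag had its lowest level.

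Mog, myelin oligodendrocyte glycoprotein, lies on the outer face of the sheath and appears late in oligodendrocyte maturation. Mog had 2.31 CPM in CD45.1 TAµ, 16.4 CPM in CD45.2 µ and 0.913 CPM in CD45.1 µ cells after ITL delivery. Mog stood at 16.3 CPM in CD45.1 TAµ, 0 CPM in CD45.2 PBS, 3.43 CPM in CD45.2 µ and 0 CPM in CD45.1 µ cells after ICV delivery. Mog was at 0.270 CPM in CD45.1 TAµ, 5.49 CPM in CD45.2 µ and 0 CPM in CD45.1 µ cells after IV delivery, against 0.536 CPM in CTR µ. ITL CD45.2 µ and ICV CD45.1 TAµ were nearly equal and highest, and 3 libraries had no count.

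Cnp, the enzyme CNPase, sits in the cytoplasm-containing channels of myelin. Cnp had 32.0 CPM in CD45.1 TAµ, 51.1 CPM in CD45.2 µ and 53.8 CPM in CD45.1 µ cells after ITL delivery. Cnp stood at 100.2 CPM in CD45.1 TAµ, 15.7 CPM in CD45.2 PBS, 36.1 CPM in CD45.2 µ and 18.5 CPM in CD45.1 µ cells after ICV delivery. Cnp was at 19.3 CPM in CD45.1 TAµ, 39.1 CPM in CD45.2 µ and 16.8 CPM in CD45.1 µ cells after IV delivery, against 32.5 CPM in CTR µ. ICV CD45.1 TAµ was highest, and the range over all libraries was 6.40-fold. Its annotated exons share 154 bases with Dnajc7 on the opposite strand, whose level was 83.2 to 149 CPM. The strand setting is not given in the sources used here, so some of these reads could belong to either gene.

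Cldn11, a claudin, forms the tight junctions between the turns of the sheath. Cldn11 had 6.10 CPM in CD45.1 TAµ, 31.5 CPM in CD45.2 µ and 1.92 CPM in CD45.1 µ cells after ITL delivery. Cldn11 stood at 109.7 CPM in CD45.1 TAµ, 0.255 CPM in CD45.2 PBS, 9.02 CPM in CD45.2 µ and 0 CPM in CD45.1 µ cells after ICV delivery. Cldn11 was at 0.878 CPM in CD45.1 TAµ, 0 CPM in CD45.2 µ and 0 CPM in CD45.1 µ cells after IV delivery, against 1.07 CPM in CTR µ. The level in ICV CD45.1 TAµ stood far above the next library, ITL CD45.2 µ, and 3 libraries had no count.

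Ermn, ermin, is a cytoskeletal protein of oligodendrocytes that binds actin. Ermn had 3.68 CPM in CD45.1 TAµ, 25.3 CPM in CD45.2 µ and 12.1 CPM in CD45.1 µ cells after ITL delivery. Ermn stood at 50.2 CPM in CD45.1 TAµ, 0 CPM in CD45.2 PBS, 8.83 CPM in CD45.2 µ and 20.0 CPM in CD45.1 µ cells after ICV delivery. Ermn was at 0.540 CPM in CD45.1 TAµ, 0.0773 CPM in CD45.2 µ and 0 CPM in CD45.1 µ cells after IV delivery, against 2.45 CPM in CTR µ. Libraries after ITL and ICV delivery, other than the PBS one, had more than any library after IV delivery. Its exons overlap those of Galnt5, which had no count in any library.

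Gprc5b encodes an orphan G protein-coupled receptor, which is also found outside the oligodendrocyte lineage. Gprc5b had 5.26 CPM in CD45.1 TAµ, 8.87 CPM in CD45.2 µ and 2.74 CPM in CD45.1 µ cells after ITL delivery. Gprc5b stood at 14.4 CPM in CD45.1 TAµ, 0.918 CPM in CD45.2 PBS, 11.2 CPM in CD45.2 µ and 28.6 CPM in CD45.1 µ cells after ICV delivery. Gprc5b was at 0.878 CPM in CD45.1 TAµ, 0 CPM in CD45.2 µ and 0 CPM in CD45.1 µ cells after IV delivery, against 2.07 CPM in CTR µ. Its highest library, ICV CD45.1 µ, had no count of Mog, Mobp, Cldn11 or Mal. Its exons overlap those of Iqck, which was at 0 to 3.12 CPM.

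**Figure D2:**
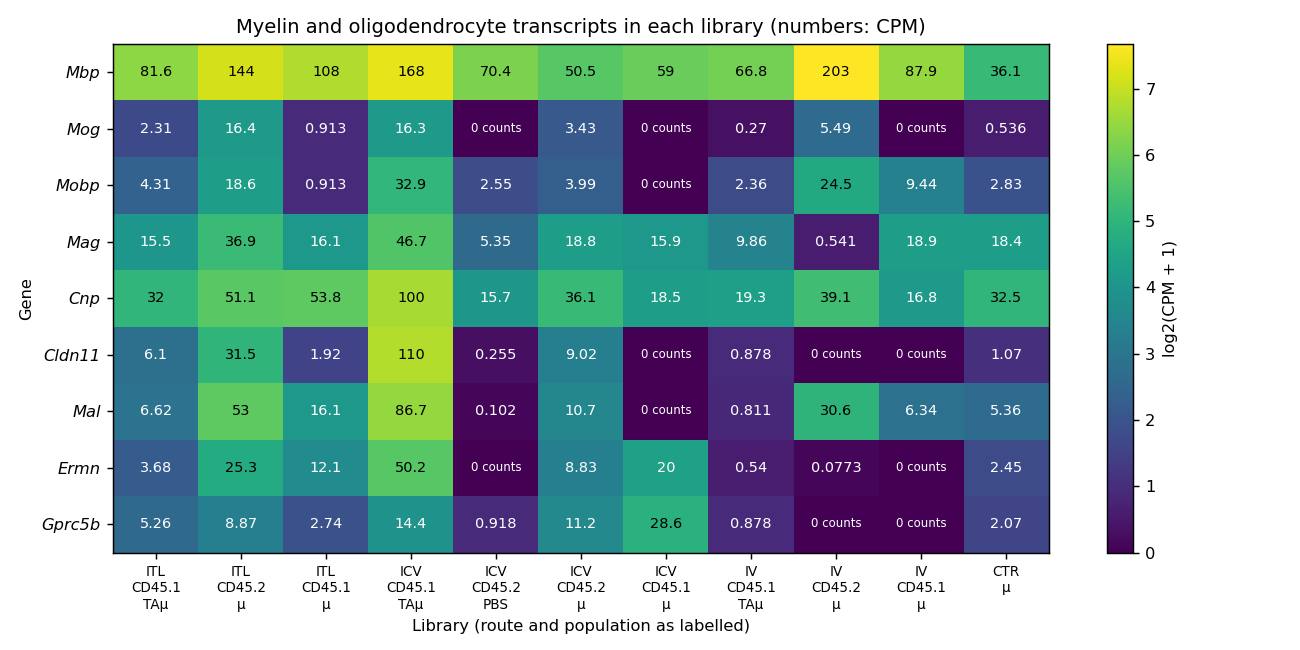
Level of each of the 9 transcripts (rows) in each of the 11 libraries (columns), with colour as log2(CPM + 1) and the CPM printed in each cell. The column of ICV CD45.1 TAµ holds the highest level in 6 of the 9 rows, and the cells with 0 counts lie in ICV CD45.2 PBS, ICV CD45.1 µ, IV CD45.2 µ and IV CD45.1 µ.

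Only Mbp, Mag and Cnp had a count in all 11 libraries, and the other 6 genes had none in 1 to 3 libraries. ICV CD45.1 TAµ was the highest library for 6 of the 9 genes, against 9.78% of all genes tested. ICV CD45.1 TAµ or ITL CD45.2 µ was highest for 7 of the 9, against 19.2% of all genes. The exceptions were Mbp, highest in IV CD45.2 µ, and Gprc5b, highest in ICV CD45.1 µ.

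Across the 11 libraries the genes varied partly together. Of the 36 pairs, 33 had a positive Pearson correlation of log2(CPM + 1), 12 had one of 0.7 or more, and the median was 0.57 (n = 11 libraries, which differ in depth, route and population). Ermn and Gprc5b (0.89) and Cnp and Mal (0.89) were closest. Mobp and Gprc5b (-0.18), Mbp and Mag (-0.17) and Mbp and Gprc5b (-0.11) were the pairs below 0.

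The populations were compared in 1 additive model of route and population over the 9 libraries of the complete layout, with edgeR's quasi-likelihood test and Benjamini-Hochberg adjustment over 13339 genes at 0.05. None of the 9 genes passed in any contrast, and limma-voom also called none. Fitted log2 fold changes are scaled by TMM, and a positive one means higher in the population or route named first. The contrasts share libraries, so their results are not independent.

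Comparing CD45.1 TAµ with CD45.1 µ, 0 of 9 genes passed, beside 0.0750% of all genes (10 genes). The median log2 fold change of the 9 was 0.93, against 0.057 over all genes, and 8 of 9 were above 0, against 54.0% of all genes. Cldn11 was at 6.10, 109.7 and 0.878 CPM in CD45.1 TAµ after ITL, ICV and IV delivery, against 1.92, 0 and 0 CPM in CD45.1 µ, a log2 fold change of 5.96 ± 1.47 (SE, adjusted p 0.327, higher in 3 of 3 routes). Mog averaged 6.30 ± 8.73 CPM in CD45.1 TAµ and 0.304 ± 0.527 CPM in CD45.1 µ (SD over 3 libraries each), a log2 fold change of 4.59 ± 2.02 (SE, adjusted p 0.874, higher in 3 of 3 routes). These were the 2 genes of the 9 with an unadjusted p under 0.05, a level reached by 5.36% of all genes. After IV delivery Mog had only 4 counts in CD45.1 TAµ (0.270 CPM) and 0 in CD45.1 µ, where 0 allows up to 0.176 CPM. The sign of the median rested on 1 library: without ICV CD45.1 TAµ it was -0.39, and 7 of the 9 genes had the other sign. Leaving out 1 library, the fold of Cldn11 ran from 2.59 (without ICV CD45.1 TAµ) to 11.77 (without ITL CD45.1 µ), and that of Mog from 1.85 to 9.12 without the same libraries. Without ITL CD45.1 µ neither gene has a count left in CD45.1 µ, and the fitted fold then depends on the prior count. Without ITL CD45.1 TAµ, 1 gene, Cldn11, was called, beside 0.0377% of all genes, and DESeq2 on the 9 libraries called none of the 9, beside 1.63% of all genes.

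Comparing CD45.2 µ with CD45.1 µ, 0 of 9 genes passed, beside 0.0300% of all genes (4 genes), and the median log2 fold change was 0.61, against -0.007 over all genes. Mog was at 16.4, 3.43 and 5.49 CPM in CD45.2 µ after ITL, ICV and IV delivery, against 0.913, 0 and 0 CPM in CD45.1 µ. It was the only one of the 9 whose 3 CD45.2 µ libraries all lay above the 3 CD45.1 µ libraries, an order shown by 4.45% of all genes. Its log2 fold change was 4.67 ± 2.0 (SE, adjusted p 0.534), and that of Cldn11 was 4.25 ± 1.75 (SE, adjusted p 0.529, higher in 2 of 3 routes). Both had an unadjusted p under 0.05, as did 8.79% of all genes. Leaving out 1 library, the fold of Mog ran from 3.74 (without ITL CD45.2 µ) to 9.27 (without ITL CD45.1 µ), and that of Cldn11 from 2.49 (without ICV CD45.1 µ) to 10.20 (without ITL CD45.1 µ). DESeq2 called 1 of the 9, Mog, beside 2.08% of all genes (277 genes). Without the 2 libraries with the fewest detected genes, 1 from each of the populations compared, the median was -0.25.

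Comparing CD45.1 TAµ with CD45.2 µ, 0 of 9 genes passed, beside 0.345% of all genes (46 genes), and 0 of 9 had an unadjusted p under 0.05, against 6.75% of all genes. The median log2 fold change was 0.24, with 6 of 9 genes above 0, and the range was -0.081 to 1.72. Mbp averaged 105 ± 54.6 CPM in CD45.1 TAµ and 132 ± 77.0 CPM in CD45.2 µ, so the groups overlapped. Cnp averaged 50.5 ± 43.5 CPM in CD45.1 TAµ and 42.1 ± 7.90 CPM in CD45.2 µ (SD over 3 libraries each), which also overlapped. Without ICV CD45.1 TAµ the median was -1.70. DESeq2 called none of the 9, beside 1.45% of all genes.

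The routes were compared in the same model. For ICV against IV, 0 of 9 genes passed, beside 0% of all genes, where edgeR called none at all. An unadjusted p under 0.05 was found for 4 of the 9, against 9.22% of all genes. Ermn was at 50.2, 8.83 and 20.0 CPM in CD45.1 TAµ, CD45.2 µ and CD45.1 µ after ICV delivery, against 0.540, 0.0773 and 0 CPM after IV delivery. Its log2 fold change was 6.97 ± 1.40 (SE, adjusted p 0.135, higher in 3 of 3 populations). Gprc5b was at 14.4, 11.2 and 28.6 CPM in these populations after ICV delivery, against 0.878, 0 and 0 CPM after IV delivery, a log2 fold change of 5.97 ± 1.25 (SE, adjusted p 0.135, higher in 3 of 3). In both genes the 3 ICV libraries of the fit lay above the 3 IV libraries, an order shown by 3.06% of all genes. ICV CD45.2 PBS, outside the fit, had 0 CPM of Ermn and 0.918 CPM of Gprc5b. The IV libraries of CD45.1 TAµ, CD45.2 µ and CD45.1 µ had 15492, 10477 and 12192 genes detected. The ICV libraries of these populations had 13560, 14668 and 11456. The part of gene detection in the levels after IV delivery was not tested. Leaving out 1 library, the fold of Gprc5b ran from 5.20 (without IV CD45.1 µ) to 10.84 (without IV CD45.1 TAµ, when no count is left after IV delivery), and that of Ermn from 5.67 (without ICV CD45.1 TAµ) to 8.86 (without IV CD45.1 TAµ).

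Cldn11 averaged 39.6 ± 60.9 CPM after ICV and 0.293 ± 0.507 CPM after IV delivery, with a log2 fold change of 6.90 ± 1.55 (SE, adjusted p 0.172) and overlapping groups, since ICV CD45.1 µ had no count. Mag averaged 27.2 ± 17.0 CPM after ICV and 9.76 ± 9.17 CPM after IV delivery, with a log2 fold change of 1.51 ± 0.69 (SE, adjusted p 0.533). Leaving out 1 library, the fold of Cldn11 ran from 3.74 (without ICV CD45.1 TAµ) to 10.19 (without IV CD45.1 TAµ), and that of Mag from 0.81 (without ICV CD45.1 TAµ) to 2.80 (without IV CD45.1 µ). The median over the 9 was 1.51, against 0.065 over all genes, and 0.10 without ICV CD45.1 TAµ. Mbp was lower after ICV delivery in this fit, at 92.5 ± 65.5 CPM after ICV and 119 ± 73.4 CPM after IV delivery (log2 fold change -0.22). DESeq2 called 2 of the 9, Ermn and Gprc5b, beside 1.10% of all genes (147 genes). Without the filter on low counts edgeR called 1, Ermn, beside 0.0462% of all genes (8 genes).

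For ITL against IV, 0 of 9 genes passed, beside 0.217% of all genes (29 genes), and 3 of 9 had an unadjusted p under 0.05, against 5.35% of all genes. The same 3 genes, Cldn11, Ermn and Gprc5b, had all 3 ITL libraries above all 3 IV libraries, an order shown by 4.74% of all genes. The ITL libraries of CD45.1 TAµ, CD45.2 µ and CD45.1 µ had 15485, 13627 and 12232 genes detected, and the part of gene detection was not tested here either. Ermn averaged 13.7 ± 10.9 CPM after ITL and 0.206 ± 0.292 CPM after IV delivery, with a log2 fold change of 6.05 ± 1.68 (SE, adjusted p 0.298). Cldn11 averaged 13.2 ± 16.0 CPM after ITL and 0.293 ± 0.507 CPM after IV delivery, with a log2 fold change of 5.73 ± 1.91 (SE, adjusted p 0.569). Gprc5b averaged 5.62 ± 3.08 CPM after ITL and 0.293 ± 0.507 CPM after IV delivery, with a log2 fold change of 4.14 ± 1.74 (SE, adjusted p 0.837). Leaving out 1 library, the fold of Gprc5b ran from 3.39 (without IV CD45.1 µ) to 9.04 (without IV CD45.1 TAµ), that of Cldn11 from 3.59 (without ITL CD45.2 µ) to 9.04 (without ITL CD45.1 TAµ) and that of Ermn from 5.08 (without ITL CD45.2 µ) to 7.95 (without IV CD45.1 TAµ). DESeq2 called these 3 genes, beside 1.12% of all genes (150 genes). The median was 1.14, against 0.049 over all genes. Mbp was at 111 ± 31.2 CPM after ITL and 119 ± 73.4 CPM after IV delivery, a log2 fold change of -0.023 whose sign turned when libraries were scaled to totals without Rn45s.

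For ITL against ICV, 0 of 9 genes passed, beside 0% of all genes, where edgeR called none and 3.79% had an unadjusted p under 0.05. The median log2 fold change was -0.37, with 8 of 9 genes below 0, and 1.24 without ICV CD45.1 TAµ. Gprc5b was at 5.26, 8.87 and 2.74 CPM in CD45.1 TAµ, CD45.2 µ and CD45.1 µ after ITL delivery, against 14.4, 11.2 and 28.6 CPM after ICV delivery. Its 3 ITL libraries all lay below the 3 ICV libraries, an order shown by 3.28% of all genes, and the log2 fold change was -1.83 ± 0.82 (SE, adjusted p 0.998). Leaving out 1 library, it ran from -2.44 (without ITL CD45.2 µ) to -1.02 (without ICV CD45.1 µ). It was the 1 gene of the 9 with an unadjusted p under 0.05, and DESeq2 called none of the 9, beside 0.240% of all genes.

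**Figure D3:**
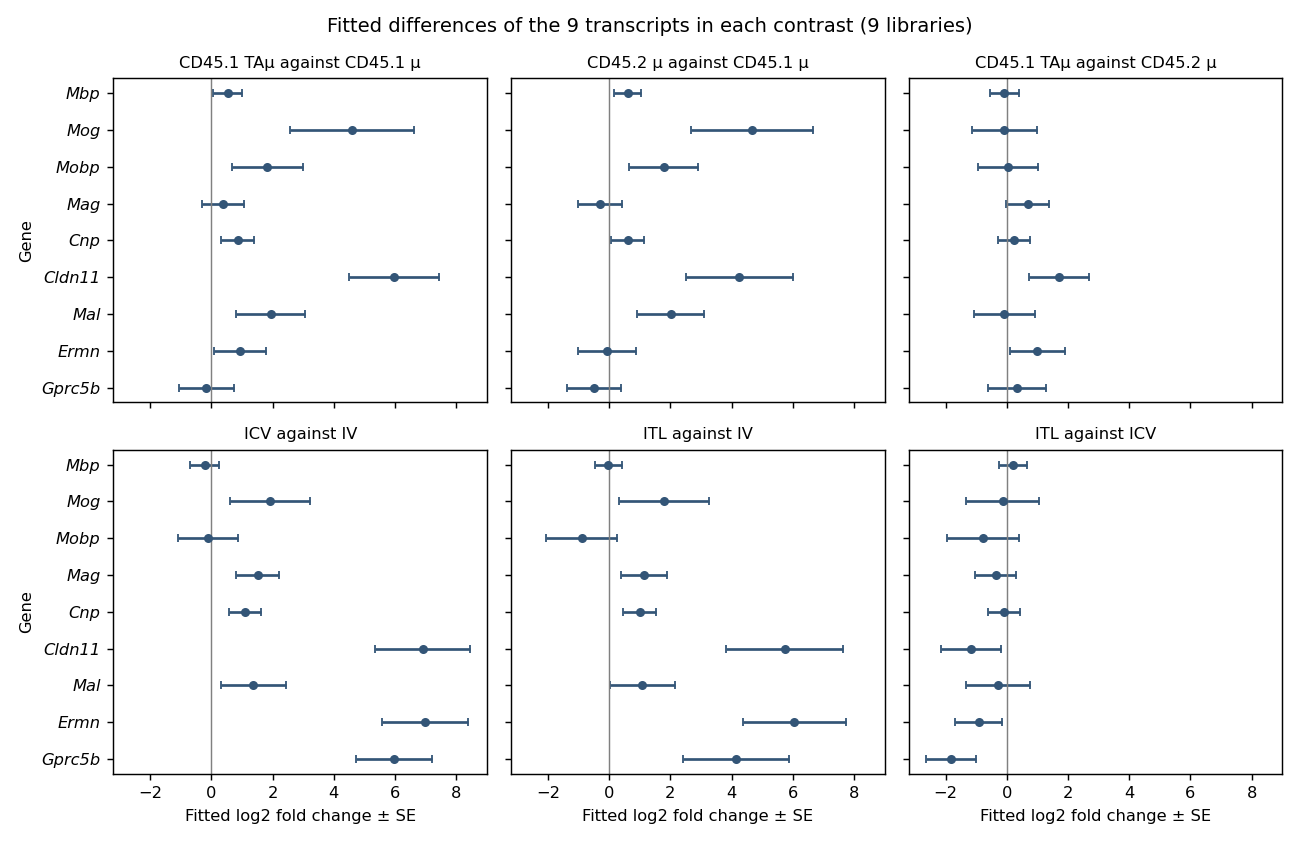
Fitted log2 fold change with its SE (points and bars) of the 9 genes in the 6 contrasts of the additive model on 9 libraries, where a value right of the line at 0 means higher in the population or route named first. The SE is derived from the F statistic of the test. Cldn11, Ermn and Gprc5b lie far to the right in ICV and in ITL against IV, with the widest of these bars reaching 1.91 log2 units, and no point passed the adjusted threshold.

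Levels in the 9 libraries of the complete layout were compared with CTR µ without a test. The summed level was 102 to 625 CPM (median 157) in the 9 libraries, against 101 CPM in CTR µ. With TMM scaling, or totals without Rn45s, the sum in IV CD45.1 TAµ was below that in CTR µ and the other 8 were above it. Without Mbp, IV CD45.1 TAµ (34.9 CPM) and IV CD45.1 µ (51.5 CPM) were below CTR µ (65.2 CPM), and the other 7 were above it. Mbp was the only gene of the 9 for which CTR µ lay below the whole range, at 50.5 to 203 CPM in the 9 libraries and 36.1 CPM in CTR µ. That is 1 of 9 genes, against 6.97% of all genes, and the other 8 lay inside the range. Mag was at 0.541 to 46.7 CPM (median 16.1) in the 9 libraries, against 18.4 CPM in CTR µ, and Cnp at 16.8 to 100.2 CPM (median 36.1), against 32.5 CPM in CTR µ.

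The PBS library was set beside ICV CD45.2 µ, the library of the same route and CD45 form, with 1 library each and no test. The sum was 95.2 CPM in PBS and 153 CPM in ICV CD45.2 µ, a ratio of 0.624 (exact 95% interval 0.589 to 0.661). Mbp was higher in PBS, 70.4 CPM against 50.5 CPM (ratio 1.39, 1.29 to 1.51), and without Mbp the ratio of the sums was 0.243. More than 2-fold lower in PBS were 7 of the 9 genes, against 10% of all genes. Mog and Ermn had 0 counts in PBS and 73 and 188 counts in ICV CD45.2 µ. With PBS set to 3 counts, their levels there were 22.4-fold and 57.7-fold lower. The exact 95% upper bounds of their ratios were 0.0562 and 0.0215, which allow somewhat smaller differences. Cldn11 had 5 counts in PBS and 192 in ICV CD45.2 µ, a ratio of 0.0283 (0.00907 to 0.0671). Mal had 2 counts in PBS and 227 in ICV CD45.2 µ, a ratio of 0.00956 (0.00115 to 0.0349). Mobp was nearer, at 2.55 CPM in PBS and 3.99 CPM in ICV CD45.2 µ. Marker lists of other cell types went both ways. The astrocyte list summed to 53.3 CPM in PBS and 257 CPM in ICV CD45.2 µ. The endothelial and mural list summed to 105 and 155 CPM, and the choroid plexus list to 4.59 and 18.9 CPM. The neuron, neutrophil, erythroid, and microglia and macrophage lists were also lower in PBS. Higher in PBS were the Schwann cell list (3.67 against 1.03 CPM) and the T and NK cell list (4.13 against 0.564 CPM). The B cell list was also higher (7.44 against 5.73 CPM). The part of these lists in the ratios was not tested.

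Other genes of the oligodendrocyte lineage were followed as 38 genes in 6 lists by role, of which 32 were tested. None passed with edgeR in any of the 6 contrasts, beside the edgeR shares of all genes given above. DESeq2 called 4 of them comparing CD45.1 TAµ with CD45.1 µ (1.63% of all genes), 6 comparing CD45.2 µ with CD45.1 µ (2.08%), 4 for ICV against IV (1.10%) and 2 for ITL against IV (1.12%), with none in the other contrasts, and limma-voom called none. An unadjusted p under 0.05 was found for 6 of the 32 in CD45.1 TAµ against CD45.1 µ (5.36% of all genes), 7 in CD45.2 µ over CD45.1 µ (8.79%), 1 in CD45.1 TAµ against CD45.2 µ (6.75%), 7 in ICV against IV (9.22%), 2 in ITL against IV (5.35%) and 0 in ITL against ICV (3.79%). The median log2 fold changes of the 32 were 2.38, 2.34, 0.17, 1.95, 1.32 and -0.48 in the same order of contrasts, against 0.057, -0.007, 0.098, 0.065, 0.049 and -0.022 over all genes.

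In the wider lists, Tspan2, a tetraspanin, was at 1.89 to 30.5 CPM, and Tppp, a tubulin-binding protein of oligodendrocytes, was highest in CTR µ (62.0 CPM).

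Of the enzymes for myelin lipids, Ugt8a, which makes galactosylceramide, reached 49.9 CPM in ICV CD45.1 TAµ and was at 0.255 CPM in PBS. Fa2h, a fatty acid hydroxylase, and Aspa, aspartoacylase, reached 14.4 and 8.87 CPM and had no count in 3 libraries each. The gap junction genes Gjc3 and Gjb1 reached 19.7 and 4.25 CPM. Of the transcription factors, Sox10 reached 22.3 CPM, Olig1 19.1 CPM and Myrf 17.9 CPM, each in ICV CD45.1 TAµ, and each had no count in 3 libraries. Of the precursor genes, Ptprz1, a receptor phosphatase, reached 42.9 CPM and Vcan, versican, 40.6 CPM, both in ITL CD45.2 µ, and Bcas1 18.7 CPM in IV CD45.2 µ. Apod, apolipoprotein D, reached 171 CPM in IV CD45.2 µ, and Qdpr, a pteridine reductase, was at 13.7 to 40.0 CPM. Trf, transferrin, stood apart at 686 to 1193 CPM in all libraries, with its lowest level in ITL CD45.2 µ.

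Genes whose levels over the 11 libraries were among the 10 most like the mean of the 9 (Pearson correlation of log2(CPM + 1), among 8008 genes with a mean of at least 10 CPM) were Car2 (0.94), Aplp1 (0.94), Tubb4a (0.93), Gnb2 (0.91), Slco1a4 (0.87), Ptprd (0.87), Tmx2 (0.85), Ndrg2 (0.85) and Ndrg1 (0.85). Car2, carbonic anhydrase of oligodendrocytes and other cells, is in the oligodendrocyte lists, and Slco1a4, a transporter of brain endothelium, is in the endothelial list. These 9 had ICV CD45.1 TAµ and ITL CD45.2 µ as their highest libraries, with ITL CD45.2 µ first for Ndrg2. They were picked by correlation over the same libraries, which favours such an order. Without ICV CD45.1 TAµ their correlations ran from 0.69 (Ndrg1) to 0.94 (Ndrg2).

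Markers of other cell types moved with the 9 genes to differing degrees. The endothelial and mural list (11 genes) summed to 528 CPM in ICV CD45.1 TAµ, 387 CPM in ITL CD45.2 µ and 464 CPM in IV CD45.2 µ, and to 105 to 174 CPM in the other 8 libraries. Slc2a1, the gene of this list with the highest mean, took 67.1 of 105 CPM in PBS and 105 of 142 CPM in IV CD45.1 µ. The sum of the list had a Pearson correlation of 0.94 with the sum of the 9 genes, both as log2(CPM + 1) over the 11 libraries. The same measure was 0.95 for the oligodendrocyte transcription factors, 0.88 for the wider myelin membrane list, 0.85 for the gap junction list, 0.83 for lipid synthesis, 0.64 for precursors and 0.57 for other mature oligodendrocyte genes. The last list summed to 723 to 1318 CPM, most of it Trf (686 to 1193 CPM), so its value mainly describes Trf. The astrocyte list (12 genes) summed to 576 CPM in ITL CD45.2 µ and 737 CPM in IV CD45.2 µ but to 279 CPM in ICV CD45.1 TAµ, with 53.3 to 290.5 CPM in the other 8 libraries (correlation 0.73). Slc1a2 and Slc1a3, its glutamate transporters, reached 316 and 203 CPM.

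The neuron list (10 genes) summed to 0.176 to 22.7 CPM (correlation 0.39), and the microglia and macrophage list had a correlation of 0.24. The 5 Schwann cell markers, which would mark peripheral myelin, summed to 0 to 14.5 CPM. Pmp2 had no count anywhere. The highest Schwann cell sum came from Drp2, at 14.05 CPM in ICV CD45.1 TAµ. The choroid plexus list (5 genes) was at 1382 CPM in ICV CD45.1 µ, the library highest for Gprc5b, and at 4.59 to 158 CPM elsewhere. The part of other brain cells in the levels of the 9 genes was not tested.

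**Figure D4:**
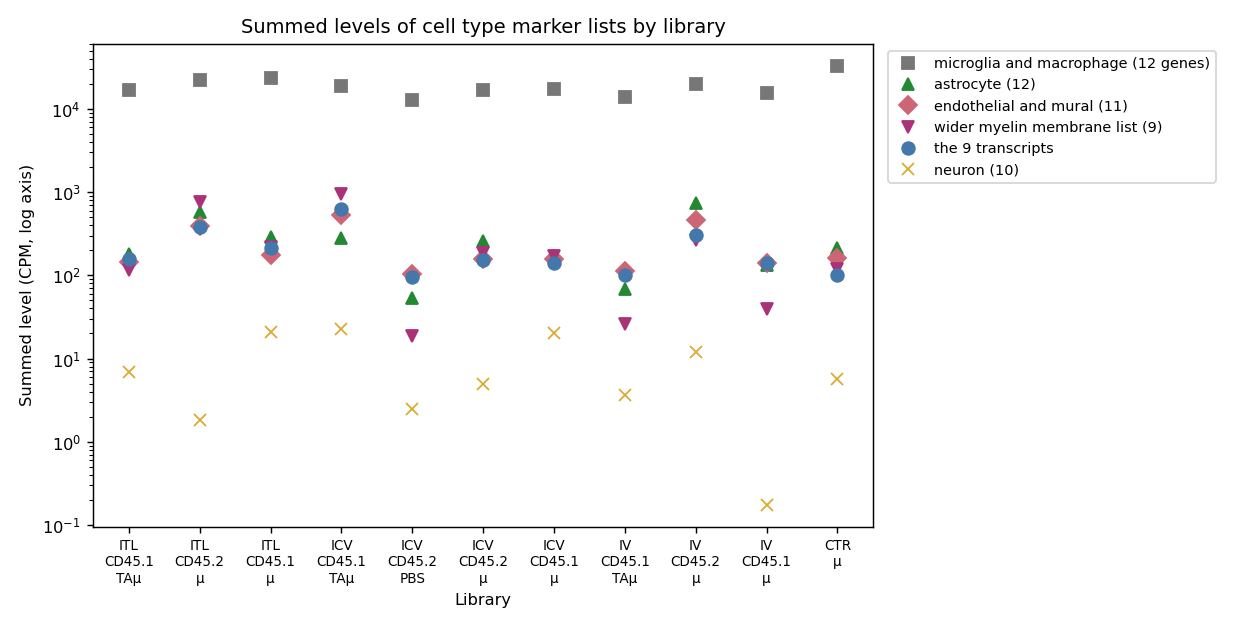
Summed level (CPM, log axis) of 5 marker lists and of the 9 transcripts in each of the 11 libraries, 1 symbol per list. The 9 transcripts and the endothelial and mural list run close together, the wider myelin membrane list lies between 18.7 and 943 CPM, and the microglia and macrophage list stays at 12839 CPM or more.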

How the data were processed

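The authors deposited unnormalized whole-number counts for each gene symbol in a separate table per library. Per the submitters' processing notes, reads were aligned with STAR (version not given) to mouse build mm39, also named GRCm39. Annotation, strand setting and filters are not stated in the labels or files used. All columns were assigned to a library (0 left over). Levels were computed as CPM of the library total. The tests used R 4.3.3 and edgeR 4.0.16 (quasi-likelihood, TMM, minimum count 10 and minimum total 15, additive route and population, 9 libraries, 4 residual degrees of freedom), tested on simulated data. CTR µ and the PBS library stayed out of the fit. The p-values measure the spread left after route and population, not between animals. Alternatives used DESeq2 1.42.0 and limma 3.58.1 (voom), other scalings, filters and sets of libraries. Fold changes are named where the unadjusted p was under 0.05, and otherwise for Mbp and Cnp as examples chosen after their values were seen. Of the other lists, up to 3 oligodendrocyte genes per role and up to 2 per other cell type were named by mean level, with Pmp2 and overlapping genes in addition. Some genes chosen by these rules are not reported here. The 9 genes and all lists were chosen with earlier results of these data known. Exon overlaps come from GENCODE M21 on GRCm38, and promoters from RefSeq GRCm38.p6, not the build of the alignment, so no coordinates of the counts are given.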

Additional observations from a re-analysis of the deposited data

Results flagged for a closer look

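The summed level of the 9 genes moved in opposite directions in different routes or populations. These are ratios of single libraries, and the differences between them were not tested. Comparing CD45.1 TAµ with CD45.1 µ, the log2 ratio was -0.43 after ITL, 2.14 after ICV and -0.45 after IV delivery. Comparing CD45.1 TAµ with CD45.2 µ, it was -1.29 after ITL, 2.03 after ICV and -1.58 after IV delivery. For ICV against IV it was 2.62 in CD45.1 TAµ, -0.99 in CD45.2 µ and 0.027 for CD45.1 µ. For ITL against ICV it was -1.99 in CD45.1 TAµ, 1.34 in CD45.2 µ and 0.58 for CD45.1 µ. In each of the 4 comparisons the value that stands apart includes ICV CD45.1 TAµ.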

How the results depend on the processing

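The labels carry no replicate numbers, so no pairing by number was made. The additive fit compared populations within routes and routes within populations, and without that matching 0 of the 9 genes were called in each contrast. The number of the 9 genes called, 0 in each contrast with edgeR, was 1 (CD45.2 µ over CD45.1 µ), 2 (ICV against IV) and 3 (ITL against IV) with DESeq2, and 1 for ICV against IV without the filter. Leaving out each library in turn, it ranged from 0 to 1 for CD45.1 TAµ over CD45.1 µ and was 0 for the others. Over the settings that keep all compared libraries or drop a pair, calls among all genes ranged from 2 to 217 for CD45.1 TAµ over CD45.1 µ, 0 to 277 for CD45.2 µ over CD45.1 µ, 21 to 193 for CD45.1 TAµ over CD45.2 µ, 0 to 147 for ICV against IV, 10 to 150 for ITL against IV and 0 to 32 for ITL against ICV. Leaving out each library, they ranged from 0 to 24, 0 to 29, 5 to 159, 0 to 28, 0 to 35 and 0 to 3 in the same order of contrasts. Calls for ITL against IV were 0 without IV CD45.1 TAµ or without ITL CD45.1 µ, those for ICV against IV 28 without IV CD45.2 µ, and those for CD45.1 TAµ over CD45.2 µ 5 without IV CD45.1 TAµ and 159 without ICV CD45.2 µ. The cause was not tested. The median log2 fold change for CD45.2 µ over CD45.1 µ was 0.94 with limma-voom, -0.25 without the 2 libraries with the fewest genes and 1.06 without ICV CD45.1 TAµ and ITL CD45.2 µ, a setting chosen after seeing the data. For ICV against IV it was 3.80 without the 2 libraries with the fewest genes. For ITL against IV it was 1.61 with DESeq2, 2.19 with limma-voom, 1.29 in the 6 libraries alone, 2.79 without the 2 libraries with the fewest genes, 1.57 with edgeR's legacy fit (also chosen after seeing the data) and 1.97 without ICV CD45.1 TAµ and ITL CD45.2 µ. Leaving out each library, the medians ranged from -0.39 to 2.10 (CD45.1 TAµ over CD45.1 µ), 0.37 to 1.76 (CD45.2 µ over CD45.1 µ), -1.70 to 0.87 (CD45.1 TAµ over CD45.2 µ), 0.10 to 2.94 (ICV against IV), 0.43 to 2.65 (ITL against IV) and -1.95 to 1.24 (ITL against ICV). The PBS ratio was 0.567 with TMM, 0.565 without Rn45s and 0.243 without Mbp. Of the other values, 227 of the comparison results and 238 of the single-gene folds kept their direction and side of the threshold, or moved within their spread. For the medians that spread was the SD over the single-library pairs of a contrast, so a change of sign could fall within it. The median for CD45.1 TAµ over CD45.1 µ is counted there although it went from 0.93 to -0.39 without ICV CD45.1 TAµ. With 1 library per combination and depths down to 6090589 counts, levels under 0.493 CPM cannot be told from 0 in the shallowest library.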
